A study of Mus musculus with 61 samples.

Results

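The NF-kB and inflammatory epithelial genes are 41 genes that were chosen by name from the 46078 genes of the deposited count table, as chemokine, acute-phase, NF-kB and complement genes with their cytokine, receptor and mucosal defence partners. They were followed in RNA sequencing of pancreatic ductal organoids, which are three-dimensional cultures grown from mouse pancreatic duct cells, here from the strain C57BL/6. The organoids had been infected with lentiviral vectors that carry doxycycline-inducible transcription factors, each with its own fluorescent reporter, and after 8 days of doxycycline the cells were dissociated and sorted by reporter colour into pools of 50 cells. All cells carried at least 1 induced factor, and uninfected cells and cells with Ngn3 alone were not analysed here. After technical repeats were summed there were 32 samples in 12 conditions. Those without the Ngn3 reporter held Pdx1 (n = 4), MafA (n = 5) or Pdx1 and MafA (n = 6), and those with it held Ngn3 and Pdx1 (n = 6), Ngn3 and MafA (n = 6) or Ngn3, Pdx1 and MafA (n = 5). Each combination came from WT cultures, infected with wild-type Ngn3, and from 6SA cultures, infected with a phospho-mutant Ngn3 whose serine sites for cyclin-dependent kinases were changed to alanine. Samples without the Ngn3 reporter from a 6SA culture therefore carry no 6SA Ngn3 reporter but shared the culture with cells that do. Replicates 1 and 2 were at passage 2 and replicate 3 at passage 5, and the study calls the replicates biological. The labels do not say what separates replicates 1 and 2, and the p-values measure the spread between these samples.

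NF-kB is a family of dimeric transcription factors that IkB proteins hold in the cytoplasm. Signals from Toll-like receptors, the receptors for interleukin-1 and Tnf and their adaptors lead to the destruction of IkB, and the freed dimers enter the nucleus and bind kB sites in promoters and enhancers. The targets include chemokines, acute-phase and complement proteins, and also the pathway's own inhibitors, so that inhibitor transcripts usually follow the activity of the pathway. Duct-like epithelia are known to secrete such proteins at mucosal surfaces and after injury. Ngn3 is the basic helix-loop-helix factor that starts endocrine differentiation in the pancreas.

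The promoters of 4 members are printed because they hold matches to the kB motif, the short sequence that NF-kB dimers bind. The 3 chemokines Cxcl1, Cxcl2 and Ccl20 fell with Ngn3, as did Nfkbia, the gene of the inhibitor IkB alpha. Each sequence holds the 150 bases that end just before the RefSeq start of the gene (GRCm38.p6, printed 5′ to 3′ on the gene's strand), and capitals mark matches on either strand to a kB core motif, GGG then any 3 bases then TTCC, adjoining or overlapping matches included.
Cxcl1, chr5:90891095-90891244, + strand: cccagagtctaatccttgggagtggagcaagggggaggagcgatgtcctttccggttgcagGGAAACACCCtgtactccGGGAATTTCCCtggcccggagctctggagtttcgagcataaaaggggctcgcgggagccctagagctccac
Cxcl2, chr5:90903749-90903898, + strand: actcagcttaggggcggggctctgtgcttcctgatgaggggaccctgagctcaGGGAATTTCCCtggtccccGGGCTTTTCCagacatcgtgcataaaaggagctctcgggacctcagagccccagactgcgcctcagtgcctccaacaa
Ccl20, chr1:83116616-83116765, + strand: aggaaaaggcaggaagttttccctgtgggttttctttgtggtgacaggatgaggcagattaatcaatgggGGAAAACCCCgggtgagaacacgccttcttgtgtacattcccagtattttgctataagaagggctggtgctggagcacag
Nfkbia, chr12:55492648-55492797, - strand: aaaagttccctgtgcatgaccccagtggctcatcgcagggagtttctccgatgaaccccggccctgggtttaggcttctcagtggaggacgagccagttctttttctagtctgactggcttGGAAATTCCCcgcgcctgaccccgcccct
In windows from 250 bases before to 50 bases after a RefSeq start, the motif was present in 9 of the 30 members that have a window (30%), namely Ccl20, Tlr2, Il6, Cxcl1, Cxcl2, Cxcl10, Tnfaip3, Nfkbia and Nfkb2. It was present in 6.31% of the 27025 genes with a window and in 5.56% of the 32851 windows. A match is a description of these letters and not a bound site. Of the 9 members with a match, Tlr2, Il6 and Nfkb2 did not pass the test for Ngn3 described next, and the other 6 did. Of the tested members with a window and no match, all but Ccl28 passed, so calls were not more frequent with a match.

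Counts on genes ranged from 2579583 to 19461008 per sample (median 8490758.5), and 3 counts, taken as the limit of detection, stood for 0.136 to 1.01 CPM (counts scaled to 1000000 per sample after TMM normalisation, which adjusts totals for composition). This limit covers counting error only, since amplified reads are not independent molecules. Neurog3, the gene of Ngn3, was at 7.87 to 329 CPM in samples with Ngn3 and at 0 to 0.788 CPM in those without. The other factors tracked their labels less clearly. Pdx1 was at 9.84 to 191 CPM in samples labelled with it and 3.21 to 30.6 CPM in the others, and Mafa was low, at 0 to 12.7 CPM (median 1.45, 1 of 22 samples at 0) and 0 to 0.116 CPM (8 of 10 samples at 0). The marker counts that follow are calls at an adjusted p under 0.05 in the test for Ngn3 described below. That test called 11.1% of all tested genes higher and 10.5% lower. Endocrine markers were higher with Ngn3 for 8 of 8 genes, with a summed level of 470 to 13710 CPM against 1.32 to 10.4 CPM. Duct markers were lower with Ngn3 for 7 of 10 genes, with a summed level of 2470 to 21950 CPM (median 6984) against 16880 to 65590 CPM (median 24420). Genes known to respond to tissue dissociation, such as Fos and Junb, were lower for 7 of 10 genes, with a summed level of 2808 to 6581 CPM (median 4370) against 6124 to 10950 CPM (median 7322). The part of these shifts in the results for the inflammatory genes was not tested. In pools of cells, fewer cells that express a gene and less RNA per cell cannot be told apart.

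In samples without Ngn3 the module was dominated by a few secreted proteins. By median CPM per kilobase of exon, a scale on which genes of different length can be compared, Lcn2 led with 4386, followed by Cxcl5 with 2054, Cd14 with 396, Nfkbia with 358, Ltf with 297, Ccl2 with 296, C3 with 278, Cxcl16 with 189 and Cxcl1 with 161. Ltf and Ccl2 lay far closer than the spread of either over samples. At the other end, Saa1 was at 0 in all 32 samples, Saa2 reached at most 0.0453 CPM and Il1b at most 0.183 CPM, and these 3 genes were too rare to test. The other 38 members were among the 24004 genes tested.

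Ngn3 went with a lower level of most of the module. In the comparison of all samples with Ngn3 (n = 17) against all without (n = 15), 31 of the 38 tested members were lower and 0 higher at a Benjamini-Hochberg adjusted p under 0.05 in edgeR's quasi-likelihood test, where 10.5% of all tested genes were lower and 11.1% higher. The median log2 fold change of the members was -2.45, against 0.07 for all tested genes, and 36 of the 38 lay below 0. The 7 that did not pass were Ccl2, Ccl5, Ccl28, Il6, Tlr2, Nfkb2 and Relb. All p-values below are adjusted over the 24004 genes unless called unadjusted, and a fold change is with Ngn3 against without. Single samples decided a few calls: Pigr was lost without any of 5 samples (among them 6SA Pdx1 replicate 1), Il18 without 6SA Pdx1 replicate 1 or WT MafA replicate 1, Nfkb1 without WT MafA replicate 2 and Cfb without WT Pdx1 replicate 1. For 7 members, Cxcl10, Ccl5, Il6, Il1a, Saa3, Cfb and Duoxa2, at least 1 condition had no counts, so their fitted fold changes depend on the small count that the model adds and are no bounds.

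**Figure D1:**
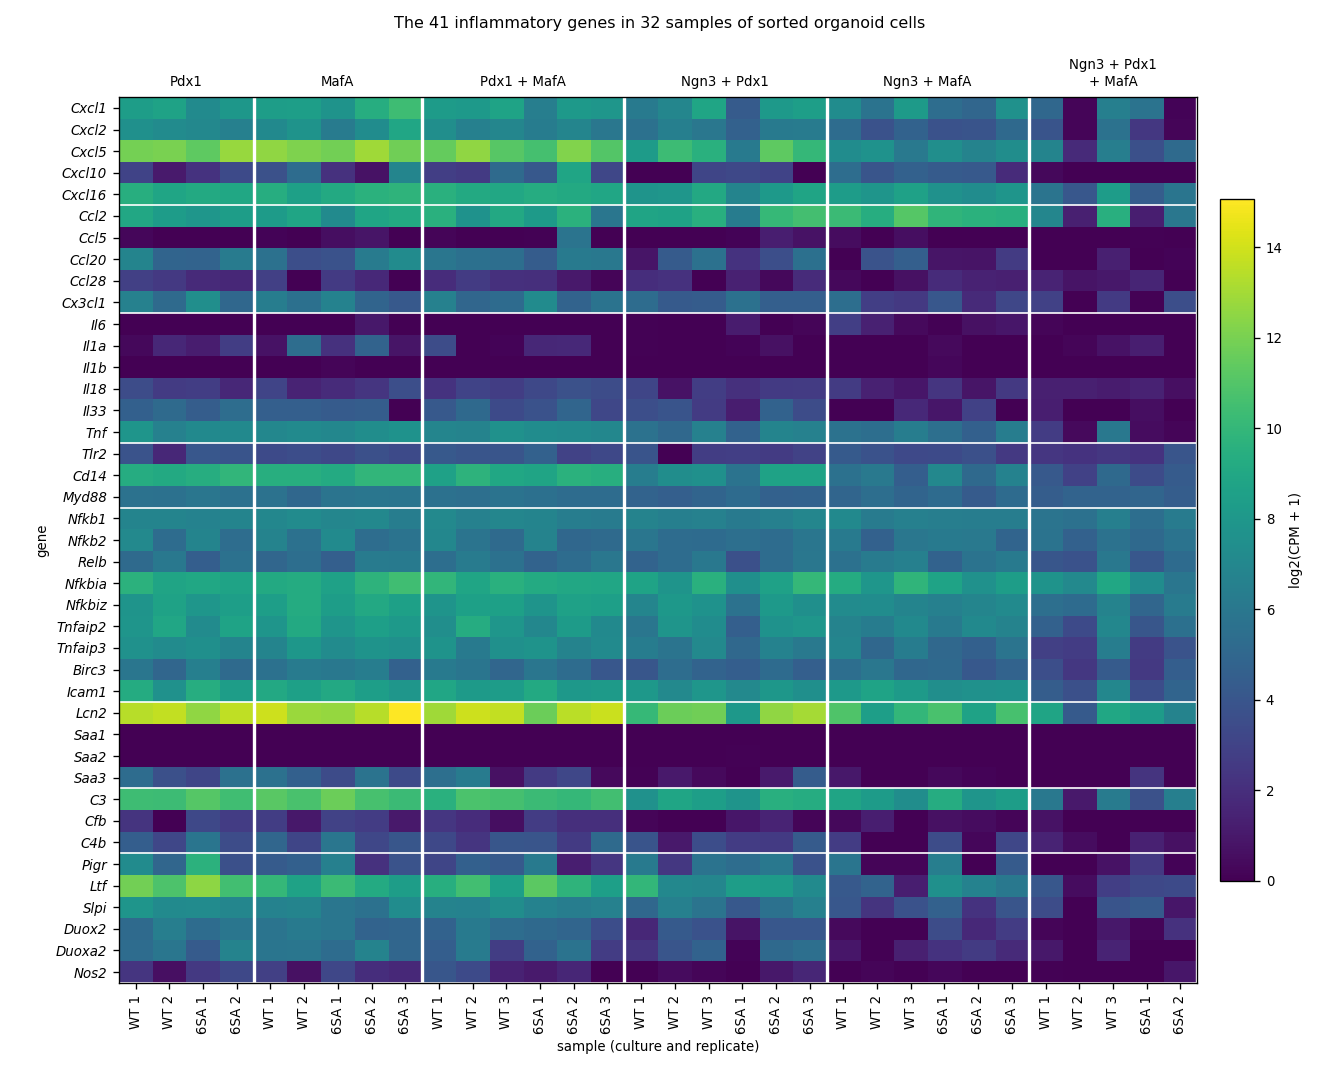
Level of each of the 41 genes (rows, grouped by role from chemokines to mucosal defence) in each of the 32 samples (columns, by factor combination, culture and replicate), as log2(CPM + 1) from dark (low) to light (high). The 17 samples with Ngn3, on the right, were darker for most rows, and the 5 with Ngn3, Pdx1 and MafA were the darkest, while Nfkb1, Nfkb2 and Relb changed less in shade.

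Among the CXC chemokines, 5 of 5 fell. Cxcl5, which attracts neutrophils through Cxcr2, was at 1583 to 7605 CPM (median 3826) without Ngn3 and at 2.49 to 2564 CPM (median 157) with it, and 6SA Ngn3 with Pdx1, replicate 2, was the only sample with Ngn3 that overlapped those without (log2 fold change -4.54 ± 0.45 (SE), adjusted p = 1.91e-08). Cxcl1 and Cxcl2, which act on the same receptor and lie beside each other on chromosome 5 (GRCm38, 90891241 to 90893115 and 90903871 to 90905938), fell less. Cxcl2 was at 61.7 to 475 CPM (median 129) without and 0.146 to 89.7 CPM (median 25.7) with Ngn3 (log2 fold change -2.73 ± 0.40 (SE), adjusted p = 1.01e-05). Cxcl1 was more spread, at 87.4 to 1351 CPM (median 303) without Ngn3 and 0.0868 to 459.9 CPM (median 71.3) with it, and the groups overlapped widely (log2 fold change -1.79 ± 0.53 (SE), adjusted p = 0.0147). Cxcl16, a membrane-anchored chemokine that binds Cxcr6, was at 381 to 872 CPM (median 570.4) without Ngn3 against 15.8 to 546 CPM (median 226) with it (log2 fold change -1.75 ± 0.28 (SE), adjusted p = 2.67e-05). The interferon-induced T-cell attractant Cxcl10 was low and uneven in both groups, at 0.648 to 464 CPM (median 8.14) without Ngn3 and 0 to 41.1 CPM (median 2.60) with it (log2 fold change -3.85 ± 0.86 (SE), adjusted p = 0.0015). The exons of Cxcl10 overlap those of Art3 and the exons of Cxcl16 those of Zmynd15, in each case on the opposite strand, and the sources do not say whether the counting used strand.

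Of the CC and CX3C chemokines, 2 of 5 fell and Ccl2 stood apart. Ccl20, the ligand of Ccr6 that draws dendritic and T cells to epithelia, was at 11.1 to 149.97 CPM (median 48.96) without Ngn3 and at 0 to 48.9 CPM (median 1.46) with it (log2 fold change -4.37 ± 0.68 (SE), adjusted p = 1.95e-05). The membrane-bound Cx3cl1 (fractalkine) was at 17.1 to 175 CPM (median 45.3) without Ngn3 against 0 to 48.5 CPM (median 11.2) with it (log2 fold change -2.50 ± 0.49 (SE), adjusted p = 0.000374). For both genes the groups overlapped. The monocyte attractant Ccl2 showed no such shift over all combinations, with 60.3 to 789 CPM (median 337) without Ngn3 and 1.42 to 2175 CPM (median 712) with it (log2 fold change 0.06 ± 0.49 (SE), adjusted p = 1). Its highest sample of all 32 was WT Ngn3 with MafA, replicate 3. Ccl28, a mucosal chemokine, reached at most 6.32 CPM in any sample (log2 fold change -1.35 ± 0.64 (SE), adjusted p = 0.152). Ccl5 was at or under 1.39 CPM in 31 samples and at 54.0 CPM in 1 sample, 6SA Pdx1 with MafA, replicate 2, in which Cxcl10 also had its highest level (464 CPM).

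Of the 5 cytokines tested, 4 fell. Tnf, the cytokine that itself activates NF-kB, was at 95.3 to 230.03 CPM (median 142) without Ngn3 and 0.174 to 109.7 CPM (median 43.6) with it (log2 fold change -2.78 ± 0.39 (SE), adjusted p = 3.99e-06) and only the highest samples with Ngn3, all of them Ngn3 with Pdx1, reached the lowest without. The alarmin Il33 was at 0 to 41.4 CPM (median 20.9) without Ngn3 against 0 to 25.7 CPM (median 1.31) with it (log2 fold change -3.59 ± 0.67 (SE), adjusted p = 0.000204). Il1a was at 0 to 40.1 CPM (median 2.18) without and 0 to 1.42 CPM (median 0) with Ngn3 (log2 fold change -5.01 ± 0.97 (SE), adjusted p = 0.000371), and Il18 at 1.85 to 12.4 CPM (median 5.77) and 0.521 to 8.04 CPM (median 1.76) (log2 fold change -1.23 ± 0.38 (SE), adjusted p = 0.0179). The groups of these 3 genes overlapped. Il6 was at 0 in 14 of 15 samples without Ngn3 (at most 0.972 CPM) and in 7 of 17 with it (at most 6.05 CPM), with an adjusted p of 1. Of its 138 counts, 102 came from the 6 samples with Ngn3 and MafA, all of which held it.

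The receptors and adaptors differed among themselves. Cd14, the co-receptor that hands bacterial lipopolysaccharide to Tlr4, was at 396 to 973 CPM (median 686) in samples without Ngn3 and 6.58 to 411 CPM (median 52.1) in samples with it, and only 2 samples with Ngn3, both 6SA Ngn3 with Pdx1, reached the lowest sample without (log2 fold change -3.51 ± 0.29 (SE), adjusted p = 6.69e-10). Myd88, the adaptor shared by Toll-like and interleukin-1 receptors, moved less and was at 31.8 to 58.98 CPM (median 48.04) without Ngn3 against 18.7 to 42.4 CPM (median 26.96) with it (log2 fold change -0.78 ± 0.14 (SE), adjusted p = 0.000195), and its exons overlap those of Acaa1a on the opposite strand. Tlr2, a receptor for bacterial lipoproteins, was at 2.24 to 24.7 CPM (median 11.8) without and 0 to 18.6 CPM (median 5.89) with Ngn3 and did not pass (log2 fold change -0.64 ± 0.35 (SE), adjusted p = 0.24).

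Among the NF-kB subunits, inhibitors and targets, 7 of 9 fell, and the 3 subunits had the fold changes nearest to 0. Nfkb1, which encodes p105 and its product p50, was at 76.1 to 154 CPM (median 112) without Ngn3 and 42.9 to 139 CPM (median 86.4) with it (log2 fold change -0.45 ± 0.14 (SE), adjusted p = 0.0178). Nfkb2, the gene of p100 and p52, did not pass, with 31.6 to 148 CPM (median 52.5) and 24.1 to 74.2 CPM (median 50.5) (log2 fold change -0.65 ± 0.26 (SE), adjusted p = 0.083). Neither did Relb, the partner of p52, with 21.6 to 76.2 CPM (median 43.2) and 11.7 to 93.9 CPM (median 39.4) (log2 fold change -0.14 ± 0.27 (SE), adjusted p = 0.95). The groups of all 3 genes overlapped, with 6 of 15 samples without Ngn3 above every sample with it for Nfkb2, 1 for Nfkb1 and 0 for Relb.

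Nfkbia was at 392 to 1374 CPM (median 576) without Ngn3 and 59.03 to 1033 CPM (median 331) with it (log2 fold change -0.89 ± 0.26 (SE), adjusted p = 0.0137). Nfkbiz, an atypical nuclear IkB protein needed for the induction of genes such as Lcn2, was at 223 to 611 CPM (median 357) without Ngn3 against 30.2 to 267 CPM (median 116) with it (log2 fold change -1.69 ± 0.22 (SE), adjusted p = 1.28e-06). Tnfaip3, the gene of the ubiquitin-editing enzyme A20, which switches the pathway off, was at 73.4 to 246 CPM (median 178) and 5.09 to 133 CPM (median 54.5) (log2 fold change -2.00 ± 0.32 (SE), adjusted p = 2.5e-05). Nfkbia, Nfkbiz and Tnfaip3 each overlapped between groups. Birc3, a ubiquitin ligase downstream of the Tnf receptors, was at 16.001 to 90.4 CPM (median 57.7) without and 4.53 to 62.3 CPM (median 22.8) with Ngn3 (log2 fold change -1.20 ± 0.27 (SE), adjusted p = 0.00121). The adhesion molecule Icam1 was at 197 to 676 CPM (median 345) without Ngn3 against 10.99 to 431 CPM (median 182) with it (log2 fold change -1.81 ± 0.26 (SE), adjusted p = 7.95e-06). Tnfaip2, a Tnf-induced gene, was at 125 to 637 CPM (median 244) without Ngn3 against 9.36 to 244 CPM (median 105) with it (log2 fold change -1.81 ± 0.34 (SE), adjusted p = 0.000195). Annotated antisense genes overlap Tnfaip2 and Icam1, and Psd overlaps Nfkb2 on the opposite strand.

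Of the 8 role lists, the acute-phase and the mucosal defence genes had the lowest median fold changes. Lcn2, lipocalin 2, which binds bacterial siderophores, was at 3237 to 34140.1 CPM (median 11505) without Ngn3 and 18.4 to 8282 CPM (median 988) with it (log2 fold change -3.52 ± 0.45 (SE), adjusted p = 1.22e-06). The samples with Ngn3 that overlapped those without all belonged to Ngn3 with Pdx1. Saa3, a serum amyloid A protein, was at 0.286 to 76.2 CPM (median 11.7) and 0 to 19.7 CPM (median 0.0693) (log2 fold change -5.81 ± 0.90 (SE), adjusted p = 2.56e-05), while reads of its near-identical relatives Saa1 and Saa2 may be split between those. The median log2 fold change was -4.67 for the 2 tested acute-phase genes and -4.51 for the 6 mucosal defence genes.

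Complement genes fell in 3 of 3 cases. C3, the protein on which all complement pathways converge, was the member whose 17 samples with Ngn3 all lay below its 15 samples without, at 1.02 to 725 CPM (median 234) against 752 to 3304 CPM (median 1432) (log2 fold change -3.03 ± 0.36 (SE), adjusted p = 3.93e-07). Groups apart in this way were found for 1 of the 38 members and for 0.15% of all tested genes. C4b, of the classical pathway, was at 4.01 to 58.2 CPM (median 14.4) and 0 to 19.3 CPM (median 1.86) (log2 fold change -2.60 ± 0.59 (SE), adjusted p = 0.00162), and its counts are uncertain beside its close copy C4a. Cfb, of the alternative pathway, was at 0 to 8.62 CPM (median 3.79) and 0 to 1.86 CPM (median 0.153) (log2 fold change -4.17 ± 0.70 (SE), adjusted p = 6.36e-05), with exons shared with Gm20547. The groups of C4b and Cfb overlapped.

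All 6 mucosal defence genes fell. Ltf, lactoferrin, which binds iron, was at 334 to 5723 CPM (median 1026) without Ngn3 and 0.439 to 1009 CPM (median 63.1) with it (log2 fold change -4.75 ± 0.49 (SE), adjusted p = 3.24e-08), and WT Ngn3 with Pdx1, replicate 1, was the highest sample with Ngn3. The oxidase Duox2 and its maturation factor Duoxa2, which together release hydrogen peroxide at the cell surface, are neighbours on chromosome 2. Duox2 was at 10.6 to 84.4 CPM (median 39.1) without Ngn3 against 0 to 18.5 CPM (median 2.22) with it (log2 fold change -4.46 ± 0.49 (SE), adjusted p = 1.22e-07), and Duoxa2 at 5.43 to 107 CPM (median 39.4) against 0 to 43.4 CPM (median 1.86) (log2 fold change -4.89 ± 0.66 (SE), adjusted p = 2.93e-06). Slpi, an inhibitor of neutrophil proteases, was at 47.3 to 230.3 CPM (median 105) and 0 to 93.9 CPM (median 16.1) (log2 fold change -2.69 ± 0.41 (SE), adjusted p = 1.49e-05). Nos2, the inducible nitric oxide synthase, was low throughout, at 0 to 15.2 CPM (median 2.92) and 0 to 2.07 CPM (median 0) (log2 fold change -4.57 ± 0.77 (SE), adjusted p = 6.28e-05). Pigr, which carries immunoglobulin A across epithelia, was uneven, at 1.44 to 812 CPM (median 19.4) without Ngn3 with its top value in 6SA Pdx1, replicate 1, and at 0 to 85.8 CPM (median 4.68) with Ngn3 (log2 fold change -2.41 ± 0.79 (SE), adjusted p = 0.0282). The exons of Duoxa2 overlap those of Duoxa1, and Slpi holds the microRNA Mir7678.

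The same question was then asked within each background, that is, by adding Ngn3 to Pdx1, to MafA or to both. Each of these comparisons had its own samples on both sides. With Pdx1 alone (n = 6 against 4), 2 of 38 members were lower, Cd14 and Ltf, where 0.171% of all tested genes were lower and 1.32% higher. With MafA (n = 6 against 5), 14 were lower, where 2.17% of all genes were lower and 2.5% higher. With Pdx1 and MafA (n = 5 against 6), 30 were lower, where 8.4% of all genes were lower and 9.42% higher. No member was higher in any of the 3. With the replicate number added as a block, 4, 22 and 31 members were lower, as were 174, 895 and 2572 of all tested genes. The median log2 fold changes of the members were -1.17, -1.84 and -3.69, beside 0.07, 0.03 and 0.05 for all tested genes. Members whose samples with Ngn3 all lay below those without numbered 8 with Pdx1 (2.05% of all genes), 15 with MafA (2.03%) and 21 with both (5.42%).

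**Figure D2:**
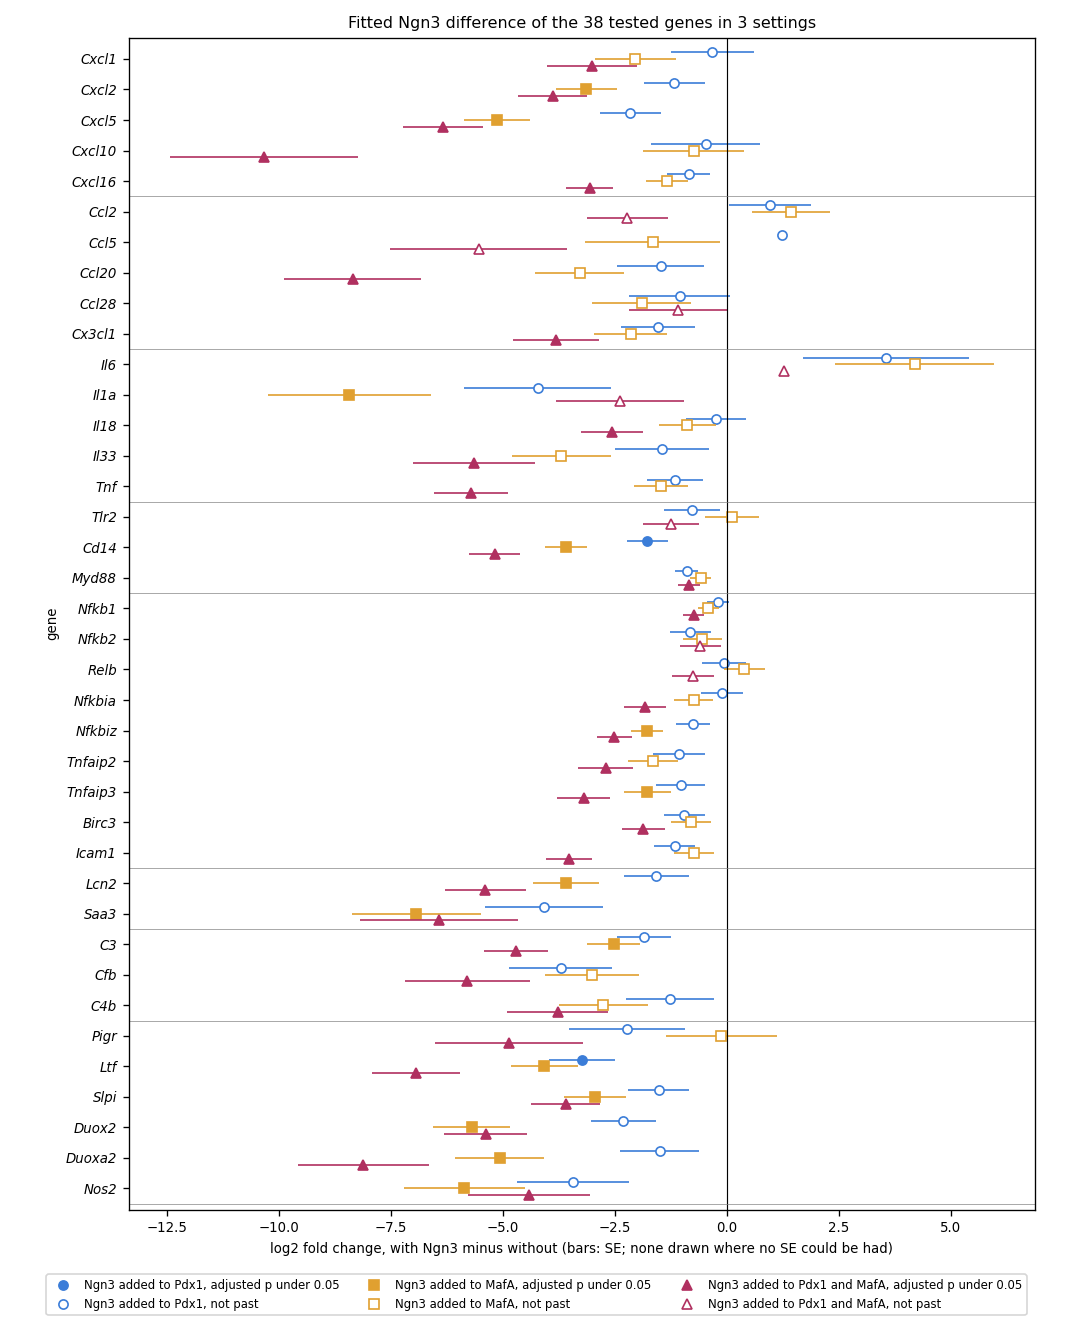
Fitted log2 fold change (with Ngn3 against without, bars give the SE) of the 38 tested genes when Ngn3 was added to Pdx1 (blue circles), to MafA (yellow squares) or to Pdx1 and MafA (red triangles), with filled symbols where the adjusted p was under 0.05. The red triangles lie farthest to the left for most genes, and 30 of them are filled, against 14 yellow squares and 2 blue circles.

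The median fold change was lowest in the background of Pdx1 and MafA. Cd14 was at 17.1, 6.58 and 34.8 CPM in the WT samples and 9.83 and 18.8 CPM in the 6SA samples, against 396 to 836 CPM (median 596) in Pdx1 with MafA (log2 fold change -5.18 ± 0.57 (SE), adjusted p = 4.96e-07). Ltf was at 15.7, 0.439 and 5.98 CPM in the WT samples and 8.61 and 9.46 CPM in the 6SA samples, against 358 to 2461 CPM (median 799) (log2 fold change -6.94 ± 0.98 (SE), adjusted p = 1.48e-05). Cxcl5 was at 110.0, 2.49 and 84.7 CPM in the WT samples and 11.9 and 36.03 CPM in the 6SA samples, against 1583 to 5943 CPM (median 2583) (log2 fold change -6.34 ± 0.89 (SE), adjusted p = 1.43e-05). For all 3 genes the groups did not overlap. C3 was at 64.8, 1.02 and 77.2 CPM in the WT samples and 12.3 and 89.6 CPM in the 6SA samples, against 752 to 1791 CPM (median 1329) (log2 fold change -4.71 ± 0.72 (SE), adjusted p = 3.71e-05). Lcn2 was at 446, 18.4 and 509 CPM in the WT samples and 307 and 104 CPM in the 6SA samples, against 3237 to 15128 CPM (median 12325) (log2 fold change -5.39 ± 0.91 (SE), adjusted p = 0.000123). WT replicate 2 was the lowest of the 5 samples for each of these 5 genes, and the groups of C3 and Lcn2 were apart as well.

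Tnf was at 5.43, 0.293 and 63.9 CPM in the WT samples and 0.407 and 0.174 CPM in the 6SA samples, against 104 to 194 CPM (median 138) without Ngn3 (log2 fold change -5.72 ± 0.83 (SE), adjusted p = 2.02e-05), and WT replicate 3 stood well above the other 4. Ccl20 was at 0, 0 and 1.46 CPM in the WT samples and 0 and 0.0868 CPM in the 6SA samples, against 19.8 to 73.8 CPM (median 53.3) (log2 fold change -8.35 ± 1.53 (SE), adjusted p = 0.00033), with 3 of 5 samples at 0. Cxcl10 had 3 counts in all 5 samples with the 3 factors and 3949 in the 6 samples with Pdx1 and MafA. That is a ratio of 1202, with an exact 95% counting interval of 411 to 5831 that covers counting error only, and 3212 of the 3949 counts came from 6SA replicate 2. The oxidase factor Duoxa2 was at 0.972, 0 and 1.86 CPM in the WT samples and 0 and 0 CPM in the 6SA samples, against 5.43 to 75.5 CPM (median 23.4) (log2 fold change -8.11 ± 1.46 (SE), adjusted p = 0.000295). All groups named here were apart.

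The combination of Ngn3, Pdx1 and MafA had the lowest of the 6 medians for 32 of the 38 members, and the lowest of the 3 combinations with Ngn3 for 33. Its 5 samples were not alike. WT replicate 3, the only one at passage 5, was the highest of the 5 for 16 of 38 members, and WT replicate 2 the lowest for 15. Tnfaip3 shows this spread, with 6.24, 5.27 and 83.6 CPM in the WT samples and 5.09 and 13.3 CPM in the 6SA samples, against 73.4 to 215 CPM (median 166) in Pdx1 with MafA (log2 fold change -3.20 ± 0.60 (SE), adjusted p = 0.000413). Icam1 was at 20.7, 11.995 and 126 CPM in the WT samples and 10.99 and 27.3 CPM in the 6SA samples, against 257 to 561 CPM (median 305) (log2 fold change -3.53 ± 0.51 (SE), adjusted p = 2.02e-05). Ccl2 also varied, at 118, 1.46 and 729 CPM in the WT samples and 1.42 and 60.6 CPM in the 6SA samples, against 60.3 to 789 CPM (median 422), and did not pass (log2 fold change -2.22 ± 0.90 (SE), adjusted p = 0.0878). For Tnfaip3 only the WT replicate 3 sample lay within the range of the samples without Ngn3. For Ccl2 the samples at 118, 729 and 60.6 CPM did.

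Adding Ngn3 to MafA gave the intermediate median fold change. Duox2 was at 0 to 10.1 CPM (median 1.30) with Ngn3 and at 53.99 and 69.7 CPM in the WT samples and 59.9, 27.2 and 29.5 CPM in the 6SA samples without it (log2 fold change -5.70 ± 0.86 (SE), adjusted p = 0.000117). Cxcl5 was at 67.9 to 203 CPM (median 160.4), against 5919 and 4609 CPM in the WT samples and 3681, 7605 and 3548 CPM in the 6SA samples (log2 fold change -5.14 ± 0.74 (SE), adjusted p = 6.66e-05). Cd14 was at 22.1 to 131 CPM (median 57.98), against 695 and 694 CPM in the WT samples and 599.9, 972 and 973 CPM in the 6SA samples (log2 fold change -3.58 ± 0.47 (SE), adjusted p = 2.45e-05). None of these groups overlapped. Lcn2 (log2 fold change -3.59 ± 0.74, adjusted p = 0.00298), Slpi (log2 fold change -2.95 ± 0.69, adjusted p = 0.00905) and C3 (log2 fold change -2.53 ± 0.59, adjusted p = 0.00859) fell as well. Ccl2, at 671 to 2175 CPM (median 855), lay above the MafA samples, at 307 and 468 CPM in the WT samples and 148, 459.7 and 556 CPM in the 6SA samples, without overlap, but did not pass (log2 fold change 1.43 ± 0.87 (SE), adjusted p = 0.468).

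Adding Ngn3 to Pdx1 gave the median fold change nearest to 0 of the 3 backgrounds. Cd14 was at 52.1 to 411 CPM (median 176), against 631 and 570.01 CPM in the WT samples and 656 and 964 CPM in the 6SA samples (log2 fold change -1.77 ± 0.46 (SE), adjusted p = 0.0464). Ltf was at 121 to 1009 CPM (median 229.7), against 3645 and 1819.5 CPM in the WT samples and 5723 and 1428 CPM in the 6SA samples (log2 fold change -3.23 ± 0.74 (SE), adjusted p = 0.0179). Both genes had groups that were apart, and so did Cxcl2, Cxcl5, Myd88, C3, Slpi and Duox2, whose adjusted p-values lay between 0.0788 and 0.517. Lcn2 was at 255 to 8282 CPM (median 3412), against 11235 and 13146 CPM in the WT samples and 6092 and 12504 CPM in the 6SA samples, and did not pass (log2 fold change -1.57 ± 0.72 (SE), adjusted p = 0.376). The 6SA replicate 1 sample was the lowest of the 6 samples with Ngn3 and Pdx1 for 20 of 38 members. The call for Cd14 in this background was lost when any of 20 single samples was left out, and that for Ltf without 6SA Pdx1 replicate 1, WT Ngn3 with Pdx1 replicate 2 or WT Pdx1 replicate 1.

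**Figure D3:**
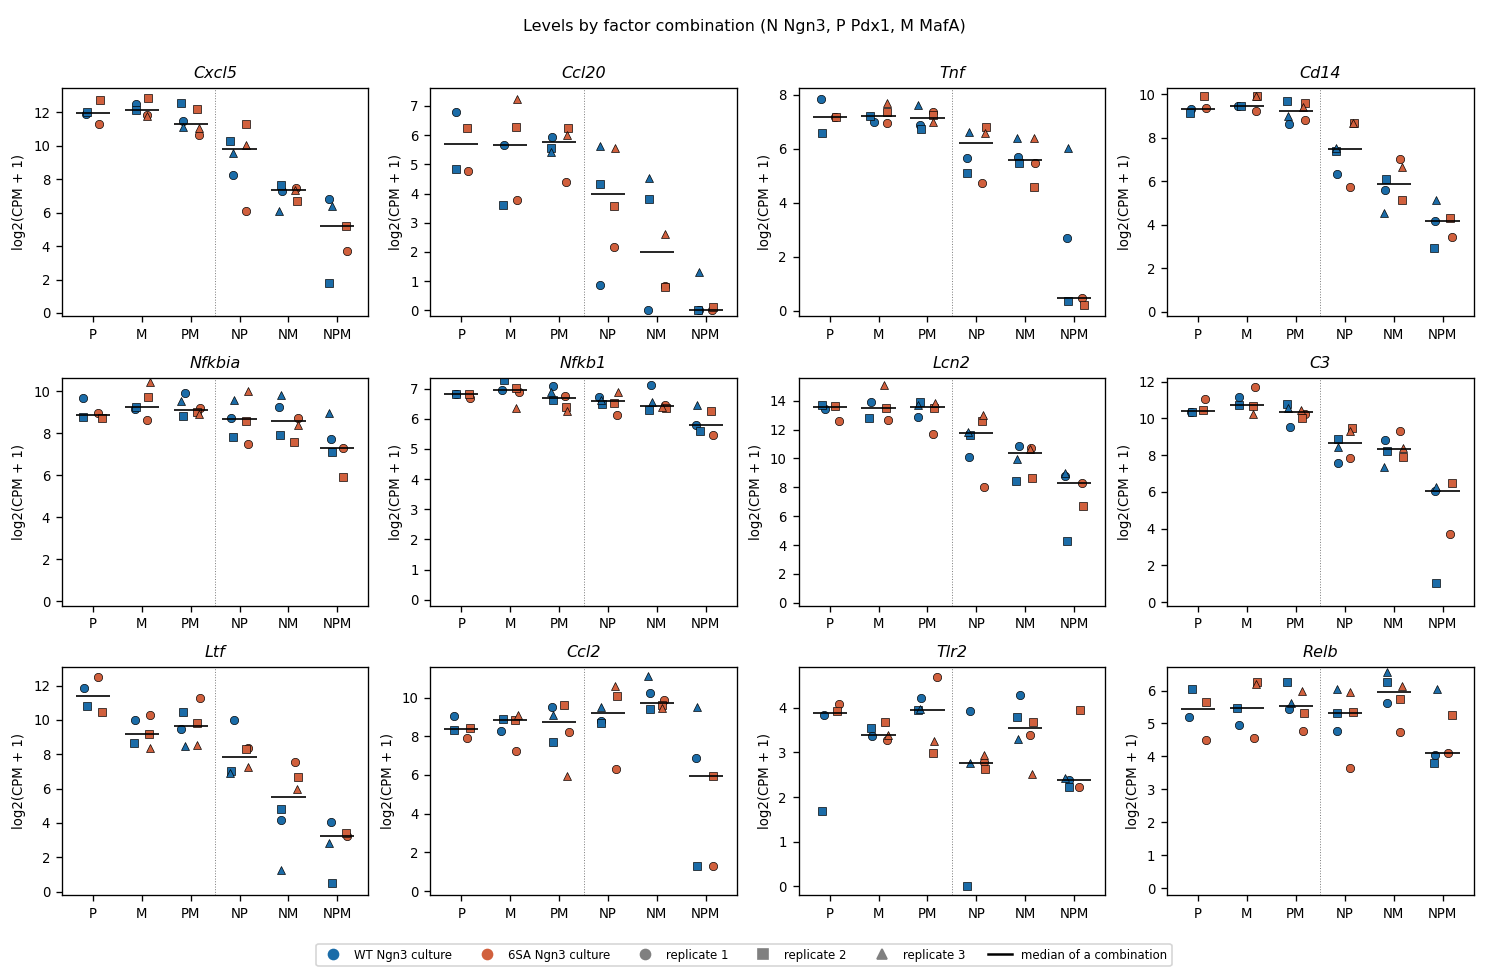
Level of 12 genes in each sample as log2(CPM + 1), by combination (P Pdx1, M MafA, PM both, and N for added Ngn3), with blue for WT and red for 6SA cultures, symbol shape for the replicate and a line at each median. For Cxcl5, Ccl20, Cd14, Lcn2, C3 and Ltf the medians step down from NP to NM to NPM, while Ccl2 had its lowest median in NPM and Tlr2 and Relb overlapped throughout.

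Whether the Ngn3 difference itself changed with the background was tested by interaction terms. Between the background of Pdx1 with MafA and that of Pdx1, 1 of 38 members passed, Cd14, whose fall with Ngn3 was deeper with MafA present (difference of log2 fold changes -3.41 ± 0.68, adjusted p = 0.0453), where 0.0708% of all tested genes differed in this direction and 0.00833% in the other. The next members by adjusted p were Tnf (-4.56 ± 1.00, adjusted p = 0.0658), Cxcl5 (-4.18 ± 1.02, adjusted p = 0.139), Cxcl10 (-9.87 ± 2.42, adjusted p = 0.153), Ccl20 (-6.88 ± 1.75, adjusted p = 0.171) and Duoxa2 (-6.62 ± 1.72, adjusted p = 0.187), which did not pass. Without WT Ngn3, Pdx1 and MafA replicate 3 there were 7 calls, and the call for Cd14 itself was lost in 24 of the 44 alternatives tried. With the replicate number as a block, 3 members were called, where 47 of all tested genes were lower and 7 higher. Between the backgrounds of Pdx1 with MafA and of MafA, edgeR called 0 of 38 members (0.0375% of all genes lower and 0.0125% higher), with 11 at an unadjusted p under 0.05 (9.35% of all genes) and 4 called by DESeq2, and leaving out the same WT replicate 3 gave 5. The replicate block gave 2 here, where 41 of all tested genes were lower and 21 higher. Between MafA and Pdx1 backgrounds edgeR called 0 (0.0% of all genes), with 5 at an unadjusted p under 0.05 (3.42% of all genes) and 0 by DESeq2.

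Without Ngn3, no member differed past the threshold in edgeR between the exogenous Pdx1 and MafA. MafA against Pdx1 gave 0 called members, with 1 at an unadjusted p under 0.05 (2.81% of all genes) and 1 called by DESeq2. MafA added to Pdx1 gave 0, with 4 at an unadjusted p under 0.05 (2.21% of all genes) and 1 by DESeq2, and Pdx1 added to MafA gave 0, with 0 (2.87% of all genes) and 0. In each of these edgeR called 0.0% of all genes. Ltf was the 1 member at an unadjusted p under 0.05 for MafA against Pdx1. With Pdx1 it lay at 3645 and 1819.5 CPM in the WT samples and 5723 and 1428 CPM in the 6SA samples. With MafA it lay at 1026 and 403 CPM in the WT samples and 1246, 584 and 334 CPM in the 6SA samples, and the groups did not overlap (log2 fold change -2.12 ± 0.78 (SE), adjusted p = 1).

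The form of Ngn3 made no difference that passed the test. Between 6SA and WT cells with Ngn3 (n = 8 against 9), edgeR called 0 members (0.0% of all genes), with 7 at an unadjusted p under 0.05 (5.92% of all genes) and 1 called by DESeq2. Duox2 was at 10.1, 2.28 and 5.35 CPM in 6SA and 0.323, 0 and 0 CPM in WT cells with Ngn3 and MafA, which did not overlap, while both forms overlapped in the other 2 combinations (log2 fold change 2.52 ± 0.66 (SE), adjusted p = 0.78). Tnf was at 0.407 and 0.174 CPM in 6SA and 5.43, 0.293 and 63.9 CPM in WT cells with the 3 factors, which overlapped (log2 fold change -2.04 ± 0.55 (SE), adjusted p = 0.78). Saa3 (log2 fold change 3.37 ± 1.40, adjusted p = 0.797), Cxcl2 (log2 fold change -1.25 ± 0.54, adjusted p = 0.809), Tnfaip3 (log2 fold change -1.07 ± 0.43, adjusted p = 0.797), Cxcl16 (log2 fold change -0.91 ± 0.38, adjusted p = 0.797) and Icam1 (log2 fold change -0.81 ± 0.36, adjusted p = 0.812) made up the 7. Cells without Ngn3 from the 2 kinds of culture gave 0 called members, with 0 at an unadjusted p under 0.05 (2.46% of all genes) and 0 by DESeq2. The interaction of the form with the Ngn3 difference gave 0, with 3 at an unadjusted p under 0.05 (2.7% of all genes) and 0 by DESeq2, again with 0.0% of all genes called.

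Passage was a further source of variation, and passage, culture and replicate number cannot be told apart here. With condition in the model, 4 members were higher at passage 5, where 3.15% of all tested genes were, and 1 was lower, where 5.07% were. Ccl20 was at 1.46 to 48.9 CPM (median 22.4) in the 5 samples with Ngn3 at passage 5 and at 0 to 18.9 CPM (median 0.760) in the 12 at passage 2 (log2 fold change 1.94 ± 0.59 (SE), adjusted p = 0.0396). Without Ngn3 its ranges were 41.7 to 149.97 CPM (median 63.6) and 11.1 to 111 CPM (median 47.6). These groups overlapped, as did those of Tnf, with 63.9 to 96.9 CPM (median 83.03) against 0.174 to 109.7 CPM (median 29.1) in samples with Ngn3 (log2 fold change 1.21 ± 0.38 (SE), adjusted p = 0.0459).

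Relb, which did not pass for Ngn3, was at 61.1 to 93.9 CPM (median 65.4) in samples with Ngn3 at passage 5 and at 11.7 to 75.2 CPM (median 31.8) at passage 2 (log2 fold change 0.93 ± 0.27 (SE), adjusted p = 0.0339). Nfkbia was at 331 to 1033 CPM (median 761) and 59.03 to 602 CPM (median 219.5) (log2 fold change 0.91 ± 0.26 (SE), adjusted p = 0.0295). Both overlapped between passages. Ltf was lower at passage 5 in the fit. With Ngn3 its medians were close, at 63.1 CPM (1.36 to 150 CPM) at passage 5 and 65.0 CPM (0.439 to 1009 CPM) at passage 2. Without Ngn3 it was at 334 to 367 CPM (median 358) at passage 5 against 403 to 5723 CPM (median 1335) at passage 2, and the groups did not overlap (log2 fold change -1.64 ± 0.44 (SE), adjusted p = 0.0224). No sample with Pdx1 alone was at passage 5, and the 4 at passage 2 hold 4 of the 5 highest values, but the passage 5 samples were also the lowest within MafA and within Pdx1 with MafA. All 5 calls were lost when libraries were scaled by the spike-in RNA, and each call was lost in 6 (Ltf) to 23 (Tnf) of the 42 alternatives. Without WT Ngn3 with MafA replicate 3, or without WT Ngn3 with Pdx1 replicate 3, 0 of the 38 members were called, and 1 was called without 6SA MafA replicate 3, 6SA Ngn3 with Pdx1 replicate 1 or 3, or WT Ngn3, Pdx1 and MafA replicate 1 or 3.

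**Figure D4:**
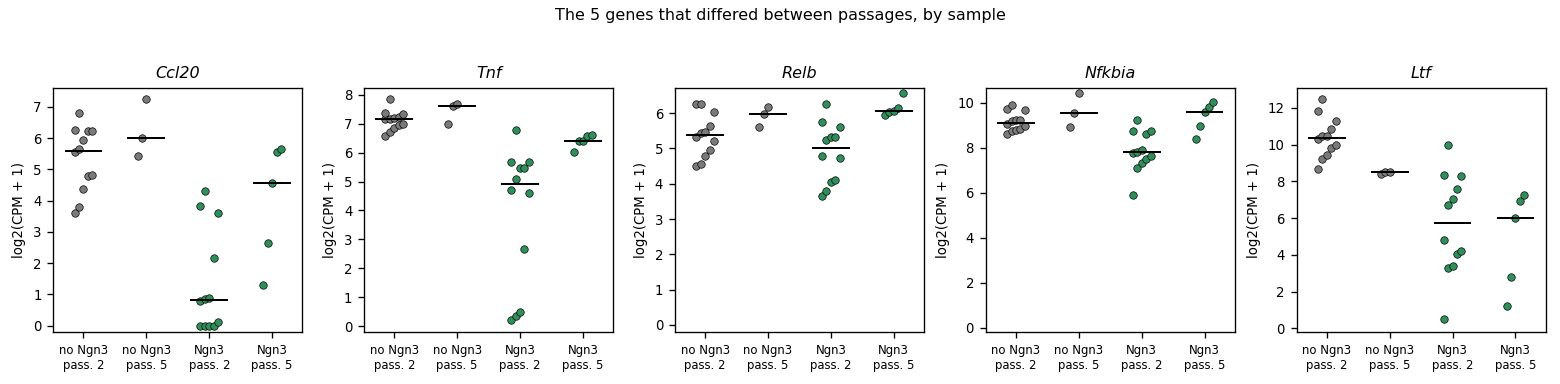
Level of the 5 genes called between passages in each sample as log2(CPM + 1), at passages 2 and 5, without Ngn3 (grey) and with it (green), with a line at each median. In samples with Ngn3, Ccl20, Tnf, Relb and Nfkbia had higher medians at passage 5 (22.4 against 0.760 CPM for Ccl20), and Ltf in samples without Ngn3 was lower at passage 5 in 3 of 3 samples. With Ngn3 the medians of Ltf were 63.1 CPM at passage 5 and 65.0 CPM at passage 2.

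The rest of the pathway was looked at through 65 further genes in 5 lists, all of them tested. For Ngn3 over all combinations 25 were lower and 4 higher, where 10.5% of all tested genes were lower and 11.1% higher. The median log2 fold change of the 65 was -0.39, beside -2.45 for the module and 0.07 for all genes. Among 20 receptors and co-receptors 10 were lower and 3 higher. Lbp, which carries lipopolysaccharide to Cd14, was at 307 to 651 CPM (median 488) without Ngn3 and 0.439 to 274 CPM (median 95.3) with it, without overlap (log2 fold change -3.11 ± 0.28 (SE), adjusted p = 3.55e-09). The receptors Tlr3 (log2 fold change -2.58 ± 0.30, adjusted p = 3.07e-07) and Tlr4 (log2 fold change -2.58 ± 0.31, adjusted p = 4.95e-07), for double-stranded RNA and lipopolysaccharide, fell too. Cd40, a Tnf-family receptor, rose, at 0.174 to 18.3 CPM (median 8.18) without Ngn3 and 8.09 to 129 CPM (median 40.5) with it (log2 fold change 2.64 ± 0.39 (SE), adjusted p = 9.07e-06).

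Of 20 adaptors and kinases, 4 were lower and 1 higher, beside 10.5% and 11.1% of all tested genes. Their median log2 fold change was 0.06. The kinase Irak2 (log2 fold change -1.95 ± 0.30, adjusted p = 1.6e-05) and Irak4 (log2 fold change -1.03 ± 0.21, adjusted p = 0.000547), which act below Myd88, and Tirap (log2 fold change -0.96 ± 0.22, adjusted p = 0.00143), which links Myd88 to Toll-like receptors, fell, while Traf3 (log2 fold change 0.80 ± 0.17, adjusted p = 0.00115), a brake on the non-canonical pathway, rose. Of 6 further Rel and IkB proteins, 4 were lower, Rel (log2 fold change -1.23 ± 0.20, adjusted p = 4.62e-05), Nfkbie (log2 fold change -0.82 ± 0.24, adjusted p = 0.0135), Bcl3 (log2 fold change -1.40 ± 0.43, adjusted p = 0.0184) and Nfkbid (log2 fold change -1.11 ± 0.36, adjusted p = 0.0275). The 13 brakes on the pathway had 5 lower and 0 higher. Il1rn, the secreted antagonist of the interleukin-1 receptor, was at 319 to 1750.0 CPM (median 597) without Ngn3 and 3.66 to 506 CPM (median 50.6) with it (log2 fold change -3.74 ± 0.31 (SE), adjusted p = 6.9e-10). Tnip3 (log2 fold change -4.27 ± 0.49, adjusted p = 2.51e-07), an A20-binding protein, and Zfp36 (log2 fold change -1.36 ± 0.17, adjusted p = 8.1e-07) and Zc3h12a (log2 fold change -1.46 ± 0.23, adjusted p = 2.37e-05), which destabilise cytokine transcripts, fell as well. Among 6 partner transcription factors, the epithelial factors Ehf (log2 fold change -2.12 ± 0.19, adjusted p = 3.14e-09) and Elf3 (log2 fold change -1.47 ± 0.22, adjusted p = 1.14e-05) were the 2 lower.

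**Figure D5:**
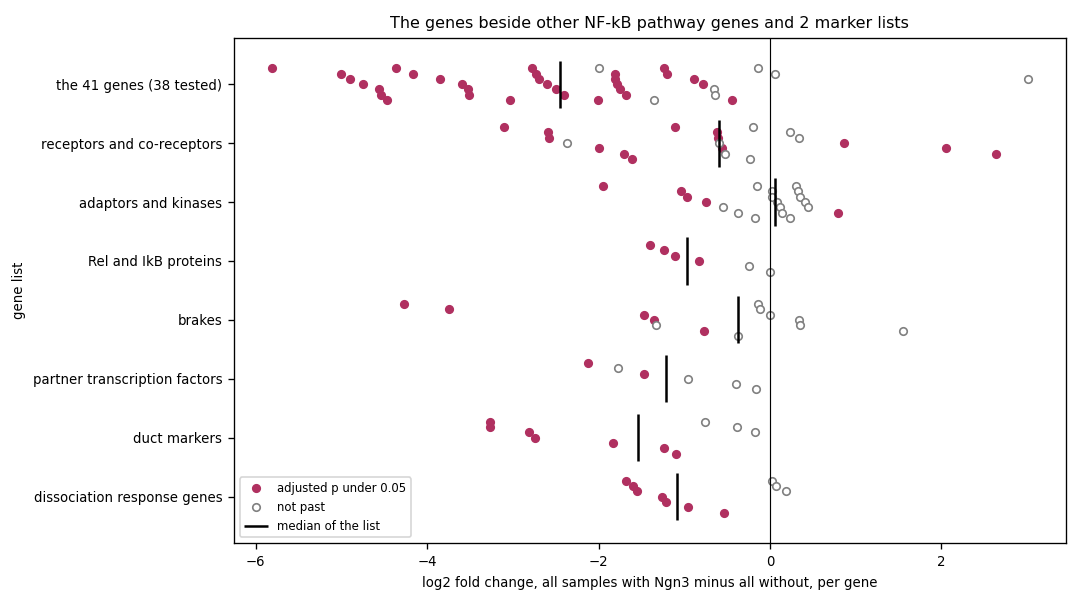
Log2 fold change of each gene (points, filled where the adjusted p was under 0.05) for all samples with Ngn3 against all without, by gene list, with a line at the median of each list. The module, with a median of -2.45, lies farthest to the left, the adaptors and kinases centre on 0.06, and the duct markers and dissociation response genes on -1.53 and -1.08.

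Markers of other cells that could share these genes were low. Leukocyte markers (12 genes) summed to 2.36 to 44.3 CPM (median 14.3) with Ngn3 and 3.39 to 30.4 CPM (median 19.8) without. Cd68 made up over 50% of the sum in 24 of 32 samples (median 78.6%), while S100a9 reached 20.96 CPM, Csf1r 11.7 CPM and Itgam 9.24 CPM at most. Of the defining genes Adgre1 and Tyrobp were at 0 in all 32 samples and Ptprc in 31. Of the 6 leukocyte markers tested, 2 were lower with Ngn3, Csf1r and S100a9. Mesenchymal markers (7 genes) summed to 0 to 296 CPM (median 0.164) with Ngn3 and 0 to 13.2 CPM (median 0.672) without, with Lum at 0 throughout and the top value in WT Ngn3 with MafA, where Col1a2 reached 188 CPM. Endothelial markers (4 genes) summed to 0 to 26.5 CPM with Ngn3 and 0 to 0.280 CPM without, and acinar markers (7 genes) to 0 to 9.71 and 0.392 to 12.7 CPM. Of the mesenchymal, endothelial and acinar markers tested (4, 3 and 2 genes), 1 passed, the acinar Cela1, which was lower with Ngn3.

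The 3 libraries left out for low counts all came from cells with Ngn3, Pdx1 and MafA and were not part of any test. They held 241563 to 625650 gene counts. The WT library and the 6SA library of replicate 2 were technical repeats of samples kept in the tests. As CPM of the totals, Lcn2 was at 14.4 CPM in the WT library and at 273 and 526 CPM in the 6SA libraries, all below its lowest sample without Ngn3 on that scale (3105 CPM). Of the 41 members, 29 lay below the range without Ngn3 in the WT library, 26 in 6SA replicate 2 and 25 in 6SA replicate 3. The others lay within it (12, 15 and 15), except Ccl28, which lay above it in 6SA replicate 3.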

How the data were processed

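RNA from pools of 50 sorted cells was amplified and sequenced single-end. The deposited table holds raw read counts for 46078 Ensembl genes and 92 ERCC spike-ins in 61 libraries. The authors made these counts by alignment with GSNAP and HTSeq (version 0.5.3p3) on mm10 and Ensembl release 81. Whether counting used strand is not given in the sources used here. Reads not assigned to a gene stayed out of all totals (no feature, median 13.97% of reads per library, and ambiguous, 3.44% to 14.2%). Symbols were matched for 45143 genes.

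The study's own criteria were applied to the libraries (over 1000000 gene counts, under 25% spike-in reads, over 10000 detected genes). The study states that more samples were not considered than the 3 libraries these criteria leave out here, all with Ngn3, Pdx1 and MafA. The other 58 were kept, with gene counts per kept library of 1373561 to 9736403. Technical repeats were summed to 32 samples. The tests covered 24004 genes, those seen in 5 or more libraries whose log2(CPM + 1) had a variance above 0.001. CPM is scaled by TMM.

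Counts were fitted with edgeR 4.0.16 in R 4.3.3 (quasi-likelihood, trended dispersion, 1 mean for each of 12 conditions, with passage added only for the passage comparison), with Benjamini-Hochberg adjustment over all tested genes. SE is the log2 fold change divided by the root of F. The scripts were checked on simulated counts. Alternatives were DESeq2 1.42.0, RLE size factors, legacy=FALSE in edgeR, all libraries, the first technical repeat only, filterByExpr, no gene filter, a replicate block and leaving out samples. Spike-in scaling was chosen after seeing the data.

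The members and lists were chosen with earlier results of these data known. The heat map gives every member sample by sample, and the text gives ranges and, where a comparison turns on them, single samples. From each pathway list the text names up to 4 genes that passed over all combinations, taken in order of adjusted p. Exon positions are from GENCODE on GRCm38, promoter sequences from RefSeq (GRCm38.p6).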

Additional observations from a re-analysis of the deposited data

Results flagged for a closer look

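The difference that goes with Ngn3 was itself different between backgrounds for 3 genes of the module and its pathway, by an interaction term in edgeR's quasi-likelihood test with Benjamini-Hochberg adjustment over all tested genes. For Lbp, the fall with Ngn3 was deeper with Pdx1 and MafA than with Pdx1 (difference of log2 fold changes -3.82 ± 0.69 SE, adjusted p = 0.0271), and deeper than with MafA (-3.42 ± 0.66, adjusted p = 0.0437). For Il1rn it was deeper with Pdx1 and MafA than with Pdx1 (-3.69 ± 0.72, adjusted p = 0.044). For Cd14 the same comparison gave -3.41 (adjusted p = 0.0453). Of 44 alternatives, 10 lost the first Lbp call, 32 the second, 22 that of Il1rn and 24 that of Cd14, with adjusted p-values up to 1. Spike-in scaling, chosen after seeing the data, lost all 4 (adjusted p = 0.833, 0.62, 0.893 and 0.981), as did leaving out 6SA Ngn3, Pdx1 and MafA replicate 1 or any of the 4 samples with Pdx1 alone. Over all samples, Lbp was at 0.439 to 274 CPM with Ngn3 (n = 17) and at 307 to 651 CPM without (n = 15).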

How the results depend on the processing

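All numbers in this section are members called at an adjusted p under 0.05, of 38 tested in the report's fit, unless called log2 fold changes. With 4 to 6 samples on a side and a floor of 3 counts at 0.136 to 1.01 CPM, a member under that floor cannot be told from one at 0. For Ngn3 over all combinations (31), DESeq2 gave 32 and leaving out samples 24 to 32. For Ngn3 added to Pdx1 and MafA (30), leaving out samples gave 15 to 32, the 15 without replicate 2 in every condition. Leaving out 1 sample there gave 24 to 32, and Cxcl1 was lost without any of 6 single samples and Il18, Nfkbia and Saa3 without 6SA Ngn3, Pdx1 and MafA replicate 2. Both counts kept to within 1.5 times under the other settings.

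Where Ngn3 was added to Pdx1 (2), DESeq2 gave 5, RLE size factors 1, legacy=FALSE 6, no gene filter 17, spike-in scaling (chosen after seeing the data) 1, and leaving out samples 0 to 3. With MafA (14), DESeq2 gave 22, no gene filter 23, and leaving out samples 6 to 18, or 12 to 17 for 1 sample. For the interaction of Pdx1 and MafA against Pdx1 (1), DESeq2 gave 11, legacy=FALSE 2, no gene filter 23, spike-in scaling 0, and leaving out samples 0 to 12, with 4 without 6SA Ngn3 with Pdx1 replicate 1, 7 without WT Ngn3, Pdx1 and MafA replicate 3 and 2 without its replicate 2. For Pdx1 and MafA against MafA (0), DESeq2 gave 4, no gene filter 13, and leaving out samples 0 to 5. For MafA against Pdx1 backgrounds (0), no gene filter gave 7. Without Ngn3, MafA against Pdx1 and MafA added to Pdx1 (0 each) gave 1 each in DESeq2 and 3 each with no gene filter. For 6SA against WT cells with Ngn3 (0), DESeq2 gave 1, no gene filter 8, and leaving out samples 0 to 2. For the Ngn3 difference in 6SA against WT (0), no gene filter gave 4, and leaving out samples 0 to 1. For passage (5), DESeq2 gave 8, all libraries 8, the first technical repeat 8, no gene filter 16, spike-in scaling 0, and leaving out samples 0 to 10. The cause of these shifts was not tested.

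With the replicate number added as a block, Ngn3 added to Pdx1 gave 4, Ngn3 added to MafA 22, the interaction of Pdx1 and MafA against Pdx1 3 and that against MafA 2, and over all combinations 31. The labels do not tie same-numbered samples to 1 culture. In 22 of 28 pairs of conditions that share 3 numbers every correlation of same-numbered deviations was over 0.1, the lowest being -0.103. In all, 28 of 32 samples correlated best with their own number, which is a further hint, from the data. For passage no paired analysis was possible because the number fixes the passage.

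Some members not past the threshold changed sign in log2 fold change. Over all combinations, Ccl2 was at -0.20 with the block. With Pdx1, Relb was at 0.0216 in DESeq2, 0.0216 with RLE size factors and 0.0802 in the first repeat, and Nfkb1 at 0.0318 in the first repeat. With MafA, Cxcl10 was at 0.40 with spike-in scaling. Leaving out samples gave log2 fold changes over all combinations of -0.68 to 0.36 for Ccl2, -0.9955 to 0.10 for Nfkb2 and -0.47 to 0.13 for Relb. With Pdx1 the ranges were -4.33 to 0.49 for Cxcl10, -0.54 to 0.29 for Il18, -1.36 to 0.13 for Tlr2, -1.30 to 0.11 for Nfkb2, -0.49 to 0.55 for Relb, -0.80 to 0.44 for Nfkbia and -3.10 to 0.80 for Pigr. With MafA they were -1.70 to 1.67 for Cxcl10, -2.57 to 2.29 for Ccl28, -0.14 to 0.40 for Tlr2 and -3.61 to 0.97 for Pigr. With Pdx1 and MafA they were -5.29 to 0.35 for Il1a and -0.9968 to 0.25 for Nfkb2. Spike-in scaling gave 1548 higher and 1746 lower of all genes for Ngn3 over all combinations, against 2658 and 2510, and 11 higher and 314 lower for passage, against 757 and 1218.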
